A study of Homo sapiens with 5 samples.

Results

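The genes described here build, cross-link and anchor the actin cytoskeleton, or are transcribed by the YAP and SRF pathways that respond to it, with FLNA, which encodes filamin A, at their head. They were chosen by name, 52 genes in all, and 51 of them were found among the 16677 genes of the count table. MYL9 was not analysed here. All 51 passed the filter on low counts and were tested. The list was drawn up, with the higher level of FLNA in these libraries already known, to ask whether other genes of its kind share it.

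Messenger RNA was sequenced from HEK293 cells, an established human embryonic kidney cell line, grown under basal conditions. The 2 wild-type libraries and 3 variant libraries share the line and the culture conditions, and differ by genotype label. The variant cells carry the T-to-C change of rs11607019, which the series places in SIRT3, a gene for a mitochondrial deacetylase. No label tells if each library is its own clone or culture, so p-values measure only the spread between these libraries. In bulk RNA, a changed share of cells of one kind and a changed amount of RNA per cell cannot be told apart.

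Filamin A links actin filaments into networks and ties them to integrins and other membrane proteins. Actin itself is assembled from monomers held by profilin and thymosins, and is trimmed by cofilin and capped by CapZ. Bundles of actin pulled by non-muscle myosin II end at focal adhesions, where talin, vinculin, zyxin and paxillin connect them to integrins. When monomers are used up by filament assembly, MRTF coactivators (MRTFA, MRTFB) enter the nucleus and work with SRF, which binds a sequence called the CArG box. YAP1 and WWTR1 (TAZ) likewise enter the nucleus when the cytoskeleton is under tension and act through TEAD factors on genes such as CCN1, CCN2 and ANKRD1.

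The sequences that SRF and TEAD factors are known to bind were searched for in the promoters, and the stretches below were chosen because they hold CArG boxes, or repeated TEAD-type hexamers, in genes of the list. RefSeq promoter windows on GRCh38.p14, from 250 bases before to 50 after a start, were found for 47 of the 51 genes. A CArG box (10 letters, C and C, then 6 of A or T, then G and G, the same on both strands) was present in 6 of the 47 genes and in 1.6% of the 27305 genes with a window. GGAATG, or CATTCC on the other strand, was present in 17 of the 47 genes and in 16.7% of all genes with a window. These shares count each gene once, whatever its number of windows. A match is only a description of the letters. Each stretch runs 5′ to 3′ in the direction of its gene and ends before its start, with the CArG boxes in capitals in the first 6 and GGAATG in capitals in the last pair.
FLNA, chrX:154374699-154374748, reverse strand: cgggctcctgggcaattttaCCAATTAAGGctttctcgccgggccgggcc
ACTN1, chr14:68977708-68977757, reverse strand: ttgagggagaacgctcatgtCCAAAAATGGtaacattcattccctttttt
SRF, chr6:43171219-43171268, forward strand: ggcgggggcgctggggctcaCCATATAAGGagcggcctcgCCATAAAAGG
ACTG1, chr17:81512864-81512913, reverse strand: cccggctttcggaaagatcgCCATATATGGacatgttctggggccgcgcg
TPM4, chr19:16067345-16067394, forward strand: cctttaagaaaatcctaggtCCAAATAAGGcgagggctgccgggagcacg
CNN2, chr19:1026499-1026548, forward strand: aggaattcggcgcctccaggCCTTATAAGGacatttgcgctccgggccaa
CCN2, chr6:131951442-131951561, reverse strand: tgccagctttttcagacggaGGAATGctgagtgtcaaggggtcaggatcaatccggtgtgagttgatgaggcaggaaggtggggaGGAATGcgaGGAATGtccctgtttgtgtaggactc
ANKRD1, chr10:90921190-90921327, reverse strand: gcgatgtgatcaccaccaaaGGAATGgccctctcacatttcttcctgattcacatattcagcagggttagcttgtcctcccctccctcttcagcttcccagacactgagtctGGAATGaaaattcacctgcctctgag
The FLNA box begins 94 bases before its start, as does that of ACTG1. The SRF gene itself has a pair of boxes, 30 and 10 bases before its start. ACTN1 also holds CATTCC. CCN2 holds 3 copies of GGAATG and ANKRD1 holds 2. The windows of TLN1, ZYX and TAGLN2 held neither motif.

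Library totals ran from 17122569 to 17596084 counts, and TMM factors (scaling for library composition) from 0.983 to 1.01. Chi-square values per degree of freedom between pairs of libraries ran from 17.3 to 38.95, so none repeated another. The lowest was for a pair across the groups, wild-type 2 and variant 3. The wild-type pair had 25.5, and pairs of variant libraries had 24.29 to 34.39. Of 13 genes that HEK293 is known to express, 7 were analysed (PAX2, LHX1, VIM, HOXA9, HOXA10, KRT8 and KRT18), with summed levels of 805 and 1088 CPM in wild type and 1012, 860 and 1267 CPM in the variant. Of 8 muscle markers 3 were analysed (ACTA2, MYH11 and LMOD1), and their sums were 9.91 and 13.5 CPM in wild type and 12.02, 21.7 and 20.5 CPM in the variant. Of 8 fibroblast markers 2 were analysed (COL1A1 and COL3A1), at 30.7 and 48.2 CPM in wild type and 30.6, 41.6 and 47.6 CPM in the variant. None of the 6 blood and 4 endothelial markers was analysed here. The part of these levels in the results was not tested.

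By the quasi-likelihood test of edgeR, adjusted by Benjamini and Hochberg over the 16310 genes tested, neither a member nor any other gene passed 0.05 (0%). At an unadjusted p under 0.05 there were 8 members (7.62% of all tested genes were called in either direction), all 8 higher in the variant, namely FLNA, ACTN1, TLN1, ZYX, TAGLN2, CCN2, ANKRD1 and SRF. They make 15.7% of the 51, where 4.11% of all tested genes were higher at that threshold. Without FLNA, the gene the list was built around, they were 7 of 50 (14.0%). No member was lower at it, against 3.51% of all tested genes. Every variant library lay above both wild-type libraries at 11 members (21.6%, and at 10 of the 50 without FLNA), against 11.8% of all tested genes. Every variant library lay below at 3 members, MYL6, WWTR1 and RHOA, where all tested genes gave 13%.

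The shift of the list as a whole was small. Its median log2 fold change was 0.11, with 34 genes higher and 17 lower, and over all tested genes the median was 0.00 (0.003) with 50.5% higher. Without FLNA the median of the other 50 was 0.11 (0.107). The median moved with single libraries, to 0.06 without wild-type 1 and to 0.25 without wild-type 2. Without wild-type 1 the 8 genes had log2 fold changes from 0.31 (ZYX) to 1.48 (ANKRD1), with FLNA at 0.84. The share of all genes with an unadjusted p under 0.05 is not given here for runs with a library left out. Calls lost at that threshold are therefore not read as a result about the members. FLNA was the only one of the 8 under it in each alternative run. ACTN1, TAGLN2 and CCN2 missed it only without wild-type 1, and TLN1, ZYX, ANKRD1 and SRF missed it in several. Wild-type 1 was the lowest library at 25 of the 51 members and variant 3 was the highest at 20. The matching shares of all tested genes are not given here, so these counts are not read as a result about the members.

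**Figure D1:**
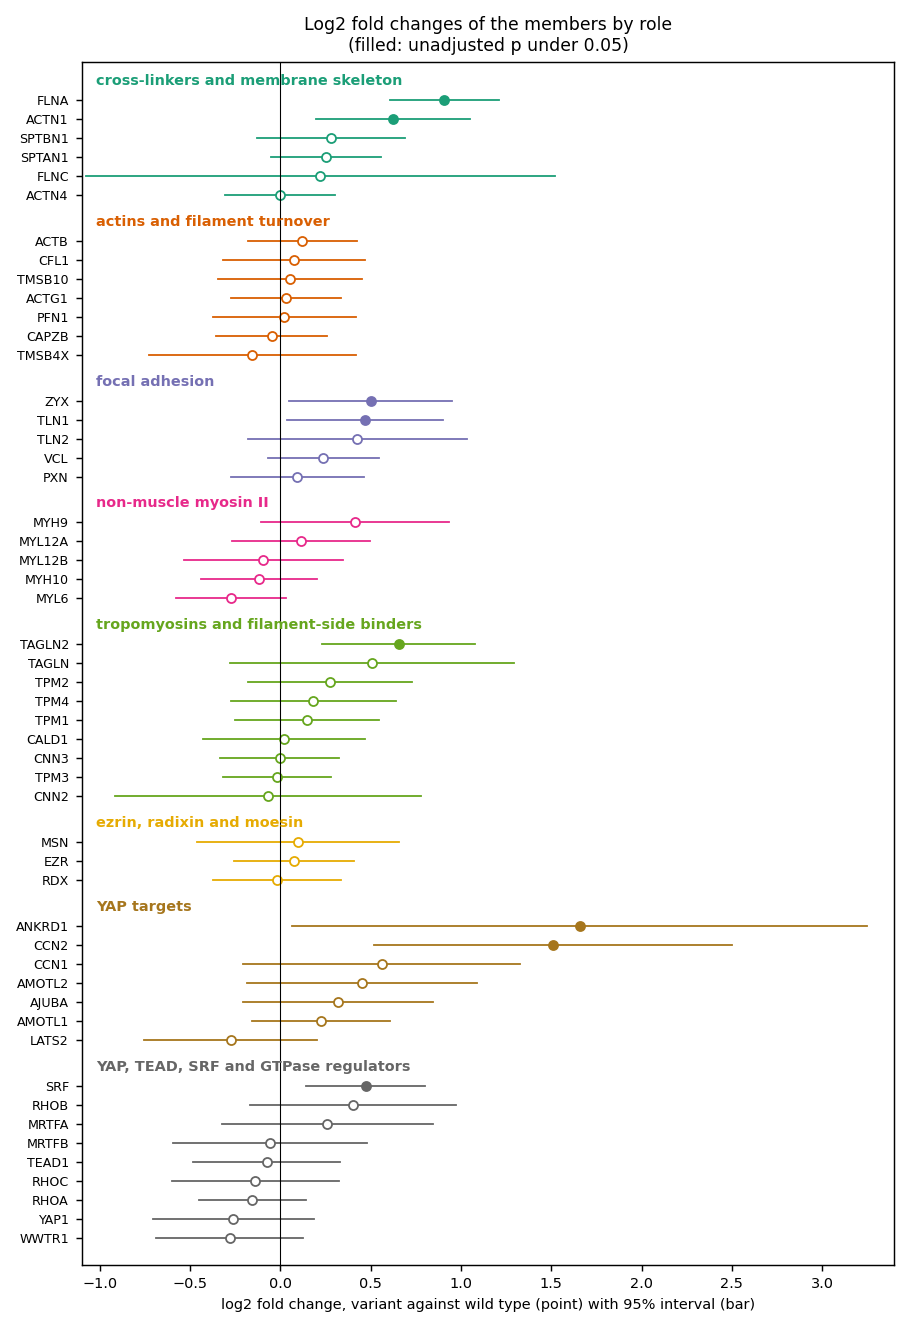
Log2 fold changes of variant against wild type (horizontal axis) for the 51 tested genes, grouped by role, with 95% intervals as bars. Filled points have an unadjusted p under 0.05, and all 8 of them lie to the right of 0.

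Cross-linkers and the membrane skeleton had 5 of 6 genes higher, with a median log2 fold change of 0.27. FLNA (ENSG00000196924) stood at 1562 and 1724 CPM in wild-type 1 and wild-type 2, and at 2782, 3240 and 3228 CPM in variant 1, variant 2 and variant 3. The groups were far apart, and the lowest variant library was well above the higher wild-type one. The group means were 1643 ± 115 CPM (SD, n = 2) and 3084 ± 261 CPM (SD, n = 3), a 1.88-fold difference. The log2 fold change was 0.91 (SE 0.14, 95% interval 0.61 to 1.21, edgeR adjusted p = 0.271). A gene on the other strand, ENSG00000285018, overlaps it by 44 bases with a mean of 1.38 CPM. DESeq2's Wald test gave FLNA an adjusted p of 0.000141, and FLNA was its only call among the members, where it called 0.217% of all genes with an adjusted p.

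ACTN1, a cross-linker that bundles filaments near adhesions, had 88.8 and 96.8 CPM in wild type and 168, 149 and 112.5 CPM in the variant. Variant 1 and variant 2 stood clear of wild type, and variant 3 was nearer to it. ACTN1 is annotated on chromosome 14 between 68874143 and 68979440, minus strand. The means were 92.8 ± 5.70 CPM (SD, n = 2) and 143 ± 28.2 CPM (SD, n = 3), and the log2 fold change was 0.63 (SE 0.19, edgeR adjusted p = 0.616). Over that chromosome's genes averaging above 3 in log2 CPM, the median log2 fold change was 0.31, with library medians of 0.30 in variant 1, 0.28 in variant 2 and −0.25 in variant 3, each relative to the average of all 5. The part of the chromosome in this difference was not tested.

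The closest relatives of these genes had smaller or less even differences, which were not tested against those of FLNA and ACTN1. ACTN4, the other non-muscle actinin, had 732 and 892 CPM in wild type and 799, 832 and 804.5 CPM in the variant, with a log2 fold change of −0.00 (−0.0005, 95% interval −0.30 to 0.30). FLNC, the muscle filamin, had 57.9 and 73.3 CPM in wild type and 26.4, 106.9 and 96.4 CPM in the variant, so variant 1 was the lowest library and variant 2 the highest. The spectrins SPTAN1 and SPTBN1 form the lattice under the membrane. SPTBN1 had 299 and 302 CPM in wild type and 438, 373.5 and 285 CPM in the variant, a log2 fold change of 0.28 with variant 3 the lowest library. SPTAN1 had 0.25. At SPTAN1 the groups did not overlap, with 299 and 343 CPM against 392, 368 and 387 CPM. SPTAN1 lies on chromosome 9, whose median log2 fold change was 0.36, and the part of the chromosome was not tested.

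FLNA was also set beside its neighbours on the X chromosome. GENCODE release 29 (GRCh38) places it on chromosome X between 154348524 and 154374638, minus strand. Within 500 kb there were 20 other tested genes with a mean log2 CPM above 3, and their median log2 fold change was 0.27, all 20 higher. Variant 2 carried most of this, with a median of 0.50 relative to the mean of the libraries and the highest level at 18 of the 20. Variant 1 and variant 3 had neighbour medians of −0.15 and −0.01, and wild-type 1 and wild-type 2 had −0.22 and −0.07.

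The deviation of FLNA from its mean over the libraries, set against that of these neighbours, was not the same in the 3 variant libraries. FLNA minus the neighbour median was −0.39 in wild-type 1 and −0.40 in wild-type 2, and 0.37 in variant 1, −0.07 in variant 2 and 0.44 in variant 3. These values compare deviations from each gene's own mean, not levels. In variant 2 the deviation of FLNA was close to the neighbour median, and in variant 1 and variant 3 it was above it. The 3 variant values, that of variant 2 included, remained above both wild-type values. Without variant 2 the log2 fold change of FLNA was 0.87. EMD, the first named gene before the FLNA start, had 133 and 154 CPM in wild type and 141, 252 and 178 CPM in the variant. No neighbour had an unadjusted p under 0.05.

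**Figure D2:**
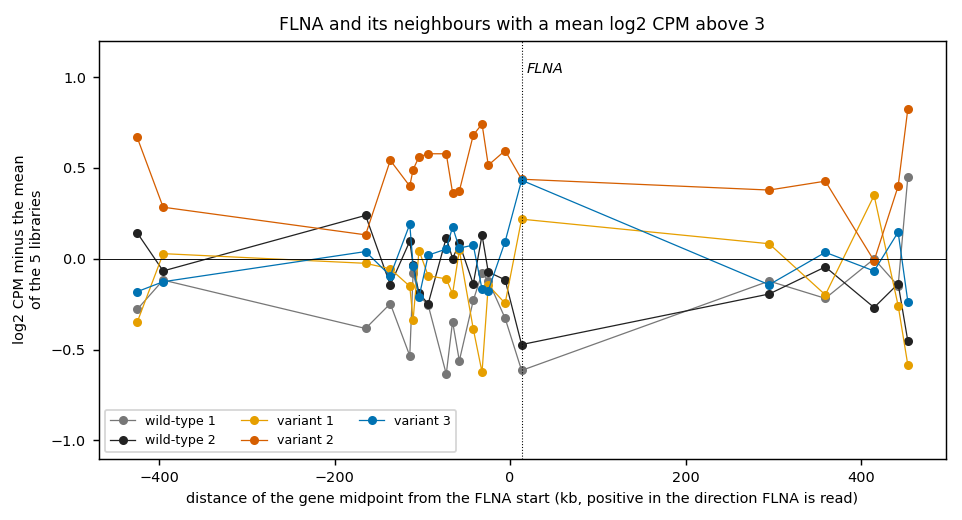
Log2 CPM minus the mean of the 5 libraries (vertical axis) for FLNA and 20 neighbours, by distance of each gene's midpoint from the FLNA start in kb (horizontal axis), with a coloured line for each library. Variant 2 is the highest library at 18 of the 20 neighbours, while at FLNA all 3 variant libraries lie above 0 and both wild-type libraries lie below it.

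The actins and the proteins that turn filaments over differed little. Between genes, levels were compared as CPM per kb of exon, averaged over the 5 libraries, and ACTG1 (1099), ACTB (726) and TMSB10 (724) were the most abundant members, with PFN1 at 377 and FLNA at 237. ACTB had a log2 fold change of 0.12 (95% interval −0.18 to 0.42) and ACTG1 of 0.03 (−0.27 to 0.34). Cofilin (CFL1) had 0.08, profilin (PFN1) 0.02, thymosin TMSB10 0.05 and CAPZB −0.05. TMSB4X, another monomer-holding thymosin, had 114 and 169 CPM in wild type and 95.2, 116 and 171 CPM in the variant. Its log2 fold change of −0.15 was the largest in size of the group and became 0.15 without wild-type 2 and 0.02 without variant 1. These genes have many processed copies, and reads of 50 bases can be shared with them, so their levels are uncertain.

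Of the focal adhesion genes all 5 were higher, with a median log2 fold change of 0.43. ZYX (zyxin, a sensor of tension at adhesions) had 95.2 and 126 CPM in wild type and 127, 154 and 187.5 CPM in the variant. Variant 1 was barely above wild-type 2, and variant 3 was the highest. ZYX lies on chromosome 7 between 143381080 and 143391111, plus strand, and overlaps EPHA1 (2.28 CPM) on the other strand by 823 bases. The means were 110.4 ± 21.5 CPM (SD, n = 2) and 156 ± 30.25 CPM (SD, n = 3), and the log2 fold change was 0.50 (SE 0.20, edgeR adjusted p = 0.627). It was 0.31 without wild-type 1. TLN1 (talin 1, which activates integrins and binds actin) had 267 and 281 CPM in wild type and 440, 414 and 284 CPM in the variant. Variant 3 was thus at the level of wild type, while the other two were well above it.

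The means of TLN1 were 274 ± 9.80 CPM (SD, n = 2) and 379 ± 83.8 CPM (SD, n = 3), and the log2 fold change was 0.47 (SE 0.19, edgeR adjusted p = 0.627). It was 0.24 once GC and length were corrected for. TLN1 lies on chromosome 9 between 35696948 and 35732395, minus strand, and that chromosome's median log2 fold change was 0.36, with library medians of −0.05 in variant 1, 0.28 in variant 2 and 0.22 in variant 3. Its part in the TLN1 difference was likewise not tested. TLN1 overlaps CREB3 (44.6 CPM) by 61 bases on the other strand. The library kit keeps the strand, but whether the counting used it is not given in the sources used here. VCL (vinculin, which reinforces talin) had 147 and 154 CPM in wild type and 174, 184 and 176 CPM in the variant. The groups did not overlap, and the log2 fold change was 0.24. TLN2, a minor talin here, had 0.43 from 96 to 177 counts a library, and paxillin (PXN) had 0.09.

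Non-muscle myosin II was mixed, with 2 of 5 genes higher and a median of −0.09. MYH9, its heavy chain A, had 546 and 890 CPM in wild type and 1011, 740 and 1123 CPM in the variant. The groups overlapped because wild-type 2 was above variant 2. The log2 fold change of 0.42 (SE 0.23) was 0.11 without wild-type 1, 0.81 without wild-type 2 and 0.22 once GC and length were corrected for. MYH10, heavy chain B, had −0.12. MYL6, an essential light chain, had 499 and 482 CPM in wild type and 398, 371 and 449 CPM in the variant, lower in all 3 variant libraries, with a log2 fold change of −0.27. The regulatory light chains MYL12A and MYL12B, which are near-identical and may share reads, had 0.11 and −0.09.

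Among tropomyosins and proteins that bind along filaments, 6 of 9 were higher, with a median of 0.15. TAGLN2 (transgelin 2, which stabilises filaments) had 336 and 419 CPM in wild type and 547, 503 and 734 CPM in the variant. All 3 variant libraries were above wild type, and variant 3 was the highest. TAGLN2 lies on chromosome 1 between 159918107 and 159925732, minus strand. The means were 377 ± 58.7 CPM (SD, n = 2) and 594 ± 122.6 CPM (SD, n = 3), and the log2 fold change was 0.66 (SE 0.19, edgeR adjusted p = 0.616). TAGLN, the smooth muscle transgelin and a classic SRF target, was low at 94 to 243 counts a library. It had 5.48 and 7.81 CPM in wild type and 8.03, 6.60 and 13.7 CPM in the variant, so its groups overlapped. The tropomyosins TPM1, TPM2, TPM3 and TPM4, which lie in the groove of the filament, had log2 fold changes of 0.15, 0.28, −0.02 and 0.18. TPM4 had 211 and 231.5 CPM in wild type and 182.5, 286.5 and 285 CPM in the variant, lowest in variant 1. Calponins CNN2 and CNN3 had −0.07 and −0.00 (−0.0038), and caldesmon (CALD1) had 0.02.

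Ezrin, radixin and moesin tie actin to the membrane, and their log2 fold changes were 0.08 (EZR), −0.02 (RDX) and 0.10 (MSN). MSN had 345 and 301 CPM in wild type and 228, 461 and 349 CPM in the variant. Variant 1 was the lowest and variant 2 the highest, and the fold change was −0.16 without variant 2.

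YAP targets were higher at 6 of 7 genes, with the largest median of the groups at 0.45. CCN2 (connective tissue growth factor) had 48 and 93 counts in wild type and 198, 110 and 299 counts in the variant. In CPM these are 2.80 and 5.30 against 11.4, 6.31 and 16.9. The groups did not overlap, but variant 2 was close to wild-type 2. CCN2 lies on chromosome 6 between 131948176 and 131951373, minus strand. The means were 4.05 ± 1.77 CPM (SD, n = 2) and 11.55 ± 5.29 CPM (SD, n = 3). The log2 fold change was 1.51 (SE 0.44, edgeR adjusted p = 0.616). Leaving out single libraries moved it from 1.12 without wild-type 1, where it no longer had an unadjusted p under 0.05, to 2.04 without wild-type 2.

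ANKRD1, a cardiac ankyrin repeat protein and a standard YAP readout, had 18 and 24 counts in wild type and 28, 33 and 141 counts in the variant. In CPM these are 1.05 and 1.37 against 1.62, 1.89 and 7.96, so variant 3 alone stood far from the rest. ANKRD1 lies on chromosome 10 between 90912096 and 90921276, minus strand. Its log2 fold change of 1.66 (SE 0.70, edgeR adjusted p = 0.641) was 0.54 without variant 3. CCN1, the relative of CCN2, had 17.9 and 27.7 CPM in wild type and 29.99, 21.2 and 49.6 CPM in the variant, again highest in variant 3, and a log2 fold change of 0.56. AMOTL1, an angiomotin that binds YAP, had 80.96 and 86.2 CPM in wild type and 114, 90.99 and 87.99 CPM in the variant, so its groups touched without overlapping and the log2 fold change was 0.23. AMOTL2, its relative, had 9.09 and 10.8 CPM in wild type and 9.36, 14.7 and 16.7 CPM in the variant, with 0.45. AJUBA, a LIM protein that inhibits the LATS kinases, had 0.32 with overlapping groups. LATS2, a kinase that holds YAP in check and is also its target, had −0.27.

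Of the transcription factors and small GTPases 3 of 9 were higher, and the median was −0.07. SRF had 98.2 and 95.9 CPM in wild type and 139.6, 139.5 and 125 CPM in the variant. Both groups were tight and clearly apart in these uncorrected levels. With GC and length corrected for, wild-type 1 (−0.10) and variant 3 (−0.03) were close, each relative to the mean of the libraries. SRF lies on chromosome 6 between 43171299 and 43181507, plus strand. The group means were 97.01 ± 1.62 CPM (SD, n = 2) and 135 ± 8.54 CPM (SD, n = 3), with a log2 fold change of 0.47 (SE 0.15, edgeR adjusted p = 0.616). MRTFA had 53.2 and 94.3 CPM in wild type and 88.25, 70.03 and 106.6 CPM in the variant, overlapping, with 0.26. MRTFB had −0.06. YAP1 had 58.5 and 47.7 CPM in wild type and 53.9, 39.6 and 39.6 CPM in the variant, and WWTR1 had 37.2 and 30.6 CPM against 29.6, 25.8 and 28.2 CPM. WWTR1 was lower in all 3 variant libraries, with a log2 fold change of −0.28, and YAP1 had −0.26. TEAD1 had −0.07. Of the small GTPases, which switch on filament assembly and contraction, RHOA had 374 and 386 CPM in wild type and 318, 349 and 358 CPM in the variant, lower in all 3 variant libraries, with −0.15. RHOB had 82.5 and 56.7 CPM in wild type and 75.8, 123.6 and 76.9 CPM in the variant, with 0.40 and variant 2 far above the rest. RHOC had −0.14.

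**Figure D3:**
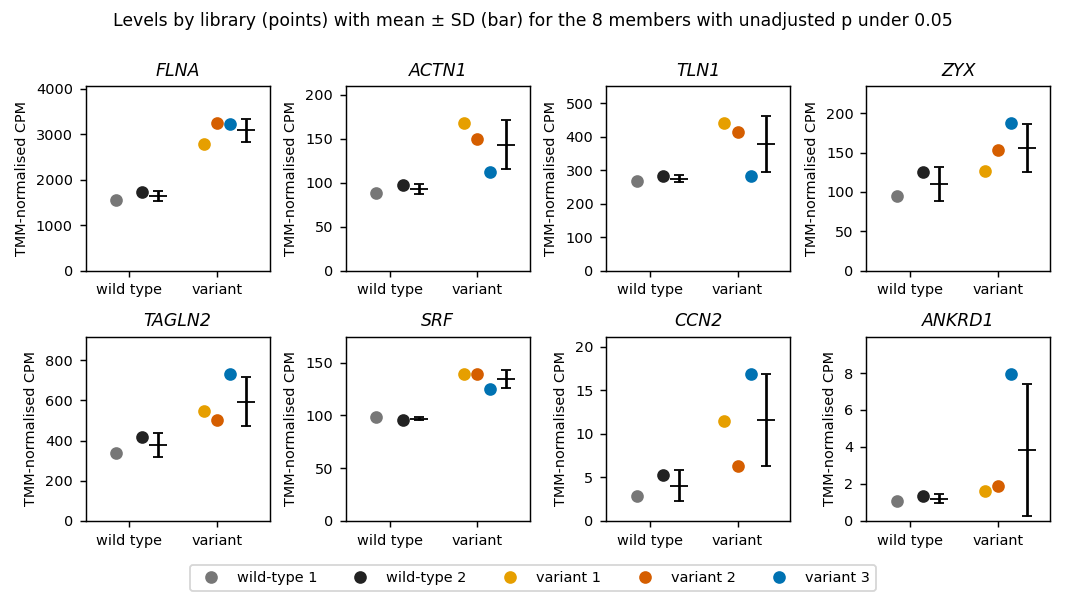
TMM-normalised CPM by library (points) and group mean ± SD (bars) for the 8 members with an unadjusted p under 0.05, each on its own axis from 0. Both groups are tight in FLNA and SRF, TLN1 in variant 3 sits at the wild-type level, and ANKRD1 is high in variant 3 alone.

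The 8 genes were thus not high in the same libraries. ACTN1 and TLN1 were highest in variant 1, FLNA in variant 2 with variant 3 close to it, and ZYX, TAGLN2, CCN2 and ANKRD1 in variant 3. SRF was level between variant 1 and variant 2. The 3 of the 8 with a CArG box in the window were FLNA, ACTN1 and SRF, and the other CArG members had log2 fold changes of 0.03 (ACTG1), 0.18 (TPM4) and −0.07 (CNN2).

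**Figure D4:**
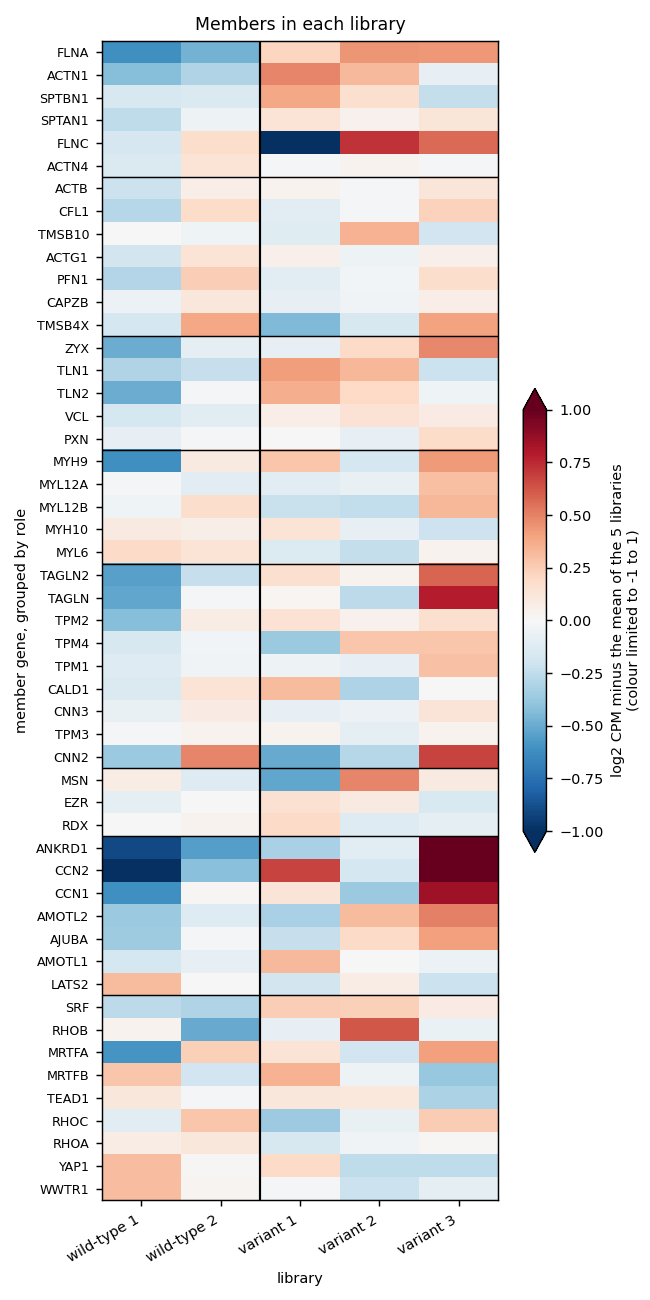
Log2 CPM of each member minus its mean over the 5 libraries (colour), with libraries in columns and genes in rows grouped by role. FLNA and SRF change colour at the line between wild type and variant, while the YAP targets ANKRD1, CCN2 and CCN1 are darkest red in variant 3.

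GC content moved with the result. Genes are not independent replicates, and across the 51 members the Spearman correlation between GC content and log2 fold change was 0.367, and across 10854 tested genes with a mean log2 CPM above 3 it was 0.403. The median GC content was 57.4% for the 8 genes, 52.8% for all members and 48.6% for all tested genes. With GC and length corrected for, the log2 fold change of FLNA was 0.66 (SE 0.12, edgeR adjusted p = 0.667). Of the list, 35 were then higher and 16 lower, and the median was 0.09 against 0.01 over all genes. At an unadjusted p under 0.05 there were 6 higher genes, where 3.84% of all genes were, and 1 lower gene, MYH10, where 2.5% were. TLN1 at 0.24 and SRF at 0.32 were no longer among them.

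**Figure D5:**
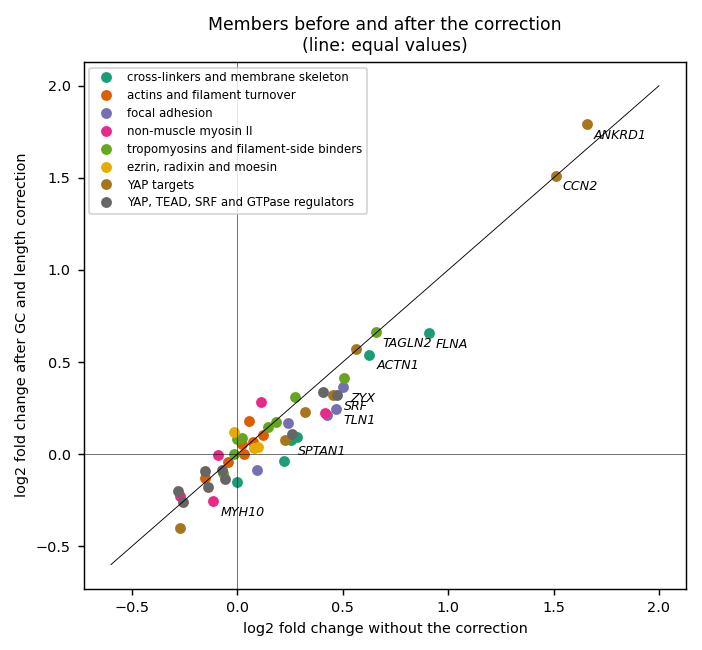
Log2 fold change of each of the 51 members corrected for GC and length (vertical axis) against its value without the correction (horizontal axis), coloured by role, with a line of equal values. FLNA and TLN1 fall below the line, while TAGLN2, CCN2 and ANKRD1 stay close to it or above it.

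The wider pathway was read from 172 other genes in 8 groups, of which 161 were tested. None passed 0.05 after adjustment in edgeR. At an unadjusted p under 0.05, 11 were higher (6.83%) and 7 lower. The median log2 fold change was 0.04. Among all tested genes 4.11% were higher and 3.51% lower at that threshold. Without variant 2 there were 9 of these pathway genes at it, with 5 higher and 4 lower. The share of all tested genes is not given here for that run. The Arp2/3 complex and its activators, which branch filaments, had 6 genes higher and 13 lower, with 1 lower at the threshold. Formins and elongation factors, which build straight filaments, had 10 higher and 4 lower, with 3 of 14 higher at the threshold. Other YAP targets had 14 of 18 higher, 2 of them at the threshold. Other SRF targets had 11 of 16 higher, with 2 higher and 1 lower at the threshold. Other actin-binding paralogs had 14 genes higher and 16 lower, with 2 higher and 3 lower at the threshold. GTPase and ROCK signalling had 13 higher and 11 lower, and Hippo kinases and TEAD partners 11 higher and 9 lower, each with 1 call in either direction. Adhesion kinases and adaptors had 12 higher and 8 lower, and none was at the threshold.

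The 10 genes with the smallest p of these came from several groups. LIMA1 (EPLIN, a filament stabiliser) was lower, at 106.5 and 117 CPM in wild type and 72.4, 75.7 and 79.6 CPM in the variant. PLS1 (plastin 1, a bundler) and CAPZA2 (a capping subunit) were also lower, with log2 fold changes of −0.68 and −0.48. Higher were SMTN (smoothelin) with 0.73, EGR1 (an immediate early factor) with 0.84, MYH14 (myosin heavy chain IIC) with 0.79 and ACTA2 (smooth muscle actin) with 1.14. So were EVL (an Ena/VASP protein) with 0.61, CDC42BPB (a Cdc42-binding kinase) with 0.72 and THBS1 (thrombospondin 1, a YAP target) with 0.94. MYH14 and ACTA2 had overlapping groups, and in the other 8 the groups did not overlap. Over all tested genes, every variant library lay above both wild-type libraries at 11.8% and below both at 13%. The 10 genes were picked by their p, so this count is not read as a result about them. EVL and CDC42BPB lie on chromosome 14, as ACTN1 does. For each of the 10, edgeR's adjusted p was 0.616.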

How the data were processed

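For 5 libraries the authors deposited read counts by Ensembl gene, not normalised. Per the submitters' processing notes, HISAT2, SAMtools and HTSeq were used with hg38, the same assembly as GRCh38. Per the labels' protocols, libraries were strand-specific and reads were single-end of 50 bases. The annotation, the strand setting and any gene filter are not given in the sources used here, and no count in the table was under 3, so genes silent in a group could not appear.

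Genes were named from the gene name table (16627 of 16677) and placed with GENCODE release 29. Counts were filtered by filterByExpr, scaled by TMM and tested with edgeR 4.0.16 (robust quasi-likelihood F test, two-sided, group the only term, Benjamini-Hochberg adjustment over 16310 genes) in R 4.3.3. Log2 CPM used a prior count of 2. The common biological coefficient of variation was 19.8%. The test was run on simulated data with known changes. Alternatives used RLE or upper-quartile scaling, other filters, DESeq2 1.42.0, limma-voom 3.58.1, the replicate block, per-library splines (5 degrees of freedom) on GC content and transcript length, and each library left out.

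The members, the lists and the alternatives were chosen with earlier results of these data known. Named genes were FLNA, members with an unadjusted p under 0.05, the member with the largest difference in each role, the 10 other pathway genes with the smallest p, and the nearest neighbour of FLNA on each side. Other genes are named to account for every member. Some genes that these rules or lists take in are not reported here.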

Additional observations from a re-analysis of the deposited data

How the results depend on the processing

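Of 195 recomputed values, 186 held: genes kept their sign and their side of an adjusted p of 0.05, counts moved by at most 1.5 times, and the median of the list by less than its spread (0.0923). No gene was under an adjusted p of 0.05 in edgeR with all libraries, so for single genes this was a weak requirement. The size of a gene's fold change was not part of it. ANKRD1 had 1.66 with all libraries and 0.54 without variant 3, and TLN1 had 0.47 and, with the GC and length correction, 0.24. An unadjusted p of 0.05 was not part of it either. TLN1 and SRF missed that threshold with the GC and length correction, ANKRD1 with upper-quartile scaling and limma-voom, and ZYX and ANKRD1 with the replicate block. DESeq2's Wald test gave 1 member with an adjusted p under 0.05, FLNA (log2 fold change 0.91, adjusted p 0.000141), where edgeR gave 0. The cause was not tested. FLNA was higher in each alternative, from 0.66 to 0.98, with an adjusted p from 0.000141 to 0.998.

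Leaving out libraries gave 2 (without wild-type 1) to 11 (without variant 1) members at an unadjusted p under 0.05, a median of 0.0625 (without wild-type 1) to 0.252 (without wild-type 2), 4 to 25 other pathway genes, 0 to 0 members at an adjusted p under 0.05 and 0.84 to 0.98 for FLNA. A lone wild-type library was assumed to vary like the others. The shares of all tested genes in these runs are not given here. These counts of calls are therefore not read as a result about the members or the other pathway genes. TMSB4X ran from −0.43 (without variant 3) to 0.15 (without wild-type 2), and was also above 0 without variant 1 (0.02). MSN lay between −0.16 (variant 2 left out) and 0.33 (variant 1 left out).

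The replicate numbers gave no pairing by design. Correlations of deviations from the group means were 0.154 for the libraries numbered 1 and −0.209 for those numbered 2. The highest was 0.336, for wild-type 2 and variant 3. With 2 wild-type libraries, each value for wild-type 1 is that for wild-type 2 with its sign reversed, so these are not separate checks. With the replicate block the list had 8 members at an unadjusted p under 0.05 (7 higher and TMSB4X lower), 6 of them shared with the fit without it. The median was 0.06, FLNA was at 0.87, and 27 other pathway genes were at that threshold. The share of all genes is not given here for this run either.

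ANKRD1, CCN2, TAGLN and TLN2 had low counts, and their fold changes had wide intervals. FLNC (SE 0.54, 456 to 1863 counts a library) and CNN2 (SE 0.37, 416 to 968 counts) had wide intervals at higher counts. The part of low counts was not tested. The groups of 2 and 3 libraries are too small for a test of single outlying libraries.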

Other observations

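Some genes of the wider pathway were high in a single library. They were picked by their values. FSCN1 (fascin, which bundles filaments in protrusions) had 140 and 153 CPM in wild type and 135.5, 166 and 316 CPM in the variant. CAVIN1, a coat protein of caveolae, had 62.2 and 98.6 CPM in wild type and 69.9, 67.6 and 176 CPM in the variant. Variant 3 was the highest library for both, as it was for CCN1, CCN2, ANKRD1 and TAGLN.

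A pair of X-linked genes, also picked by their values, were highest in variant 2. AMOT, a YAP-binding angiomotin, had 208 and 174.5 CPM in wild type and 228, 434 and 154.5 CPM in the variant. FHL1, a LIM domain protein, had 285 and 332 CPM in wild type and 347, 518 and 349 CPM in the variant. The median over the 364 genes of that chromosome with a mean log2 CPM above 3, relative to the mean of the libraries, was 0.19 in variant 2. It was 0.00 (0.0002) and −0.05 in the wild-type libraries, and −0.08 in variant 1 and −0.06 in variant 3. Not every X-linked gene had this order: PLS3 (plastin 3) was highest in variant 1, at 742 CPM against 561 CPM in variant 2, and TMSB4X was highest in variant 3.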
